A study of Mus musculus with 13 samples.

Results

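The p53 pathway genes are 34 mouse genes chosen by name: Trp53, which encodes the tumour suppressor p53, its inhibitors Mdm2 and Mdm4, and other genes listed for its pathway. Whether p53 drives each of them in these cells was not tested. They were read from 13 poly(A) RNA libraries of mouse melanoma cell lines grown in culture. All 34 were found among 35498 genes, and 33 passed the filter on low counts, which kept 13044 genes for testing. The exception was Perp, a membrane protein gene of p53-driven apoptosis, which had at most 1 read in any library and at most 0.0531 CPM, the level scaled to library size that is used below.

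In the study, doxycycline was used to switch on sAC, the soluble form of adenylyl cyclase, in a chosen compartment of the cell; the gene is Adcy10 and its product is cyclic AMP. The lines titled NLS carry the construct whose compartment under doxycycline is labelled nuclear. Cell lines 7, 6 and 16 each gave 1 library before doxycycline (t0), 1 after 6 h (t6) and 1 after 48 h (t48). The lines titled LacZ, numbers 12 and 10, gave 1 library each at t0 and t48. Each line carries 1 construct. The labels do not say how the lines were made or whether libraries of a line came from separate cultures. The p-values below measure the spread between these libraries, which may be technical in the comparisons of lines. Time labels and constructs were compared without a line term, so there the spread also holds differences between lines.

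Some labels and values did not match, and the groups below are named by the sample titles. The LacZ t48 libraries are labelled nuclear, against their titles, and no LacZ value at t48 exists without them. Adcy10 did not follow the time labels: it lay between 181 and 200.4 CPM in line 7, between 339 and 371 CPM in line 6, between 0.671 and 1.22 CPM in line 16 and at up to 0.167 CPM in the LacZ lines. The pigment cell genes were scarce: the summed level of the 8 melanocyte markers was 3.24 to 5.90 CPM, Mitf lay between 2.76 and 5.37 CPM and Tyrp1 had no reads. The sum of 8 fibroblast markers, led by the collagens, was 7129 to 17071 CPM, with Lum and Thy1 at 0.0942 CPM or less. Sums of leukocyte, keratinocyte and endothelial markers were 5.84 to 14.6, 2.05 to 4.67 and 2.10 to 4.22 CPM. Depth was similar in the 13 libraries, at 18512887 to 22584628 estimated reads, so levels below about 1 CPM rest on few reads.

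p53 is a transcription factor that is kept scarce by Mdm2, a ubiquitin ligase that marks it for destruction, and by Mdm4, a relative of Mdm2 that blocks its activity. Mdm2 is itself a p53 target, which closes a feedback loop. Stress or DNA damage releases p53, and its targets then halt the cell cycle, repair DNA, adjust metabolism or bring about cell death. In melanoma the gene is often intact, and its output can be held down by the inhibitors. Because p53 is controlled largely as a protein, the mRNA of Trp53 is not a measure of its activity, and the mRNAs of its targets are the usual readout.

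p53 binds a consensus element made of 2 half-sites of 10 bases, next to each other or separated by a short spacer. The element was looked for, with a spacer of at most 3 bases as the limit of the search, in the window from 250 bases before to 50 bases after the RefSeq start sites (GRCm38.p6), with at most 2 mismatches over its 20 positions; the pattern reads the same on both strands. Of the 26 members with a window, 7 (26.9%) held a match, against 1124 of 27025 genes (4.16%). By window, it was in 7 of 36 windows of members (19.4%) and in 1180 of 32851 windows (3.59%). The 7 sequences are shown because they are the letters that mark these genes as possible direct targets. They are written 5′ to 3′ on the strand of the gene, with capitals for bases that fit the consensus and lower case for mismatches and for bases between the half-sites.
Bax: AAGCATaTCCcAGGCAAGCTT
Ccng1: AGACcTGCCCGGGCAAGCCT
Polk: GAACTAGCCTcAAACTTaTTC
Rps27l: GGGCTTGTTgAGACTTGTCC
Ckap2: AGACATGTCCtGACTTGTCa
Pml: GGGCTTGTTTacttGCTTGTTT
Sesn1: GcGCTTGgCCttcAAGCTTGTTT

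The match of Bax lay 212 bases before its start site (chr7:45467090-45467110, minus strand), that of Ccng1 195 bases before (chr11:40755462-40755481, minus strand) and that of Polk 231 bases before (chr13:96519398-96519418, minus strand). Those of Rps27l (chr9:66946296-66946315, plus strand), Ckap2 (chr8:22186003-22186022, minus strand), Pml (chr9:58249909-58249930, minus strand) and Sesn1 (chr10:41887253-41887275, plus strand) lay 117, 203, 144 and 186 bases before a start site. The matches of Polk, Rps27l and Sesn1 fall inside the span of the annotated gene, in front of an internal start site. A match is a description of letters, not evidence of binding in these cells.

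The members covered a wide range of levels. Per transcript length, in TPM, the highest medians over the 13 libraries were those of Trp53 at 291 TPM, Rps27l, a ribosomal protein gene, at 282 TPM, and Bax at 182 TPM. Reads of Rps27l may be shared with its near-identical relative Rps27, so its level is uncertain. The lowest, after Perp, were Ddit4l at 0.118 TPM and Trp53inp1, a stress gene of the p53 response, at 0.49 TPM. Of the 33 tested members, 23 had a median of at least 10 CPM, and for these the highest library stood at a median of 1.57 times the lowest, against 1.51 times for the 8985 genes at that level. The steadiest were Mdm2, at 1.18 times, with 1.78% of genes steadier, and Ccng1, which encodes cyclin G1, at 1.24 times, with 6.50% steadier. Ephx1, which encodes microsomal epoxide hydrolase, varied most among them, at 3.67 times.

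**Figure D1:**
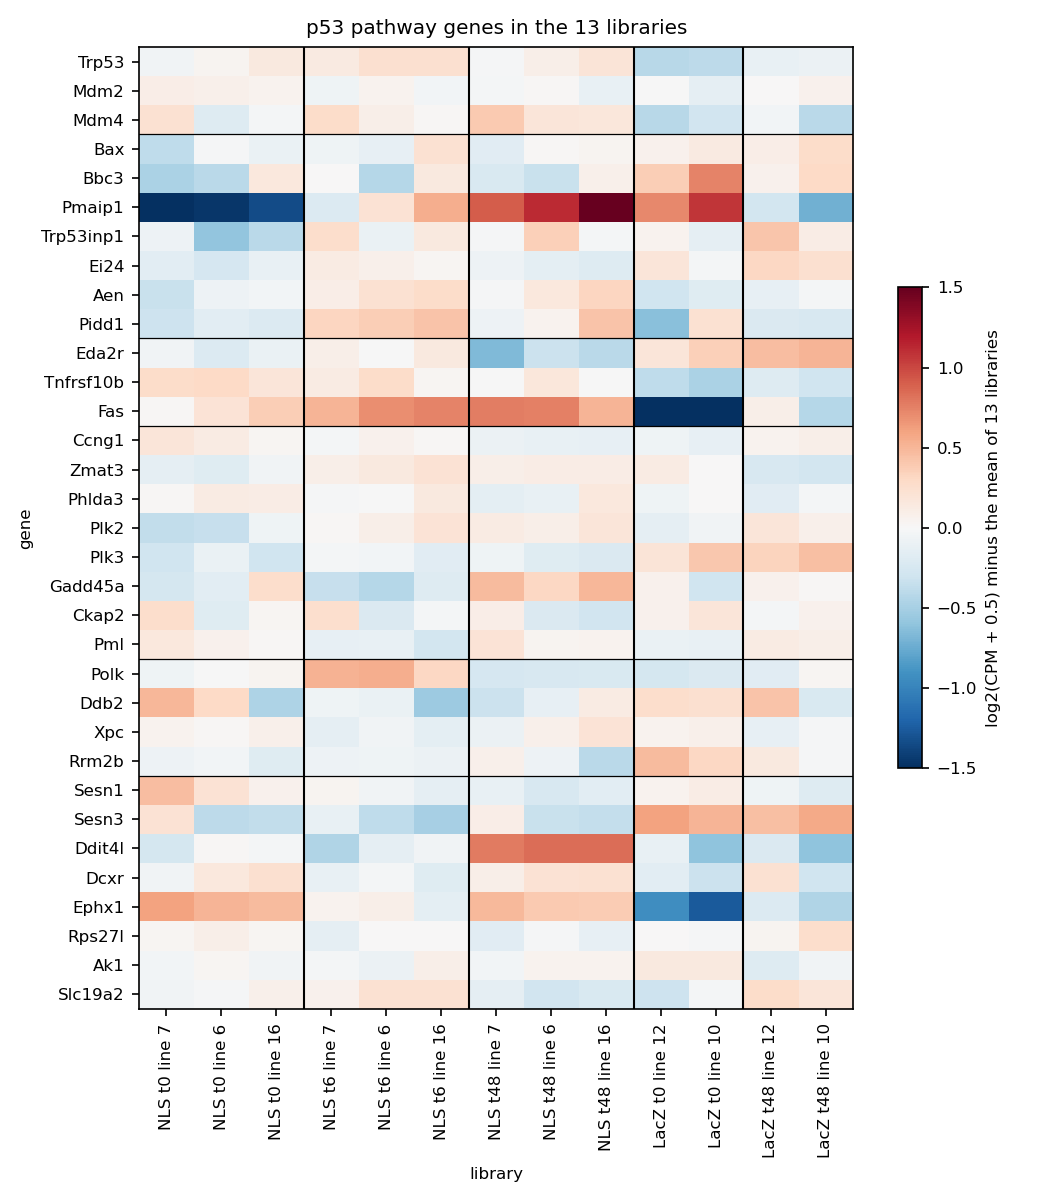
Levels of the 33 tested members in the 13 libraries, as log2(CPM + 0.5) minus the mean of each gene, with colours ending at 1.5 in either direction. Columns are libraries, grouped by construct and time label; rows are genes, grouped by role. Pmaip1 and Fas have the strongest contrasts, while the row of Mdm2 is nearly uniform.

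The question put to these genes was whether p53 output differs between the lines. Lines were compared in 1 fit of edgeR's quasi-likelihood test over all 13 libraries with the time label as a term, with Benjamini-Hochberg adjustment over all 13044 genes and a call below an adjusted p of 0.05. Log2 fold changes are on the scale of normalized counts. The 3 NLS comparisons share libraries, so their counts are given side by side and are not independent.

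In line 6 against line 16, no member passed. This 0 of 33 stands beside 2.26% of all genes tested (0.882% higher and 1.38% lower). At an unadjusted p below 0.05 there were 5 of the 33 members, beside 1845 of the 13044 genes tested, and DESeq2 also called 0 members. The smallest p was that of Tnfrsf10b, a receptor of the death ligand TRAIL, with a log2 fold change of 0.18 (edgeR adjusted p = 0.0639). The 95% interval of the difference stayed within 0.5 on the log2 scale for 28 of the 33 members. For Mdm2 the difference was 0.08 (interval -0.03 to 0.18), and for Trp53 it was -0.07 (-0.15 to 0.02). The largest difference, not called, was that of Bbc3, which encodes the death protein PUMA, at -0.63 (interval -1.06 to -0.21, edgeR adjusted p = 0.126). Without the library of NLS t0 line 6, Tnfrsf10b (edgeR adjusted p = 0.0308) and Phlda3 (0.0428) were called, and without that of NLS t0 line 7, Gadd45a (0.0267).

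In line 7 against line 16, 12 of 33 members differed (36.4%), 6 higher and 6 lower. Among all genes tested, 22.6% differed, 11.8% higher and 10.8% lower. Trp53 itself was lower in line 7, with Mdm4 higher. The apoptosis genes Aen, Pmaip1 and Bax were lower, as were the kinase gene Plk2 and the Akt inhibitor gene Phlda3. The sestrins Sesn3 and Sesn1, which restrain mTORC1 under stress, were higher, with Ckap2, Pml and Ephx1. The median log2 fold change was -0.07 over the members and 0.00 over all genes, so the members did not move one way.

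Trp53 (chromosome 11, bases 69580359 to 69591873 of GRCm38, plus strand) stood at 317, 362 and 327 CPM in line 7 at t0, t6 and t48, against 366, 389 and 376 CPM in line 16. Line 7 was the lower of the pair at each time label, and the ranges did not overlap. The log2 fold change was -0.17 (SE 0.04, edgeR adjusted p = 0.00475). Line 6, at 340.2, 391 and 350.2 CPM, lay above line 7 at each time label.

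Mdm2 (chromosome 10, 117688875 to 117710758, minus strand) stood at 68.9, 61.3 and 62.8 CPM in line 7 at t0, t6 and t48, at 67.6, 66.6 and 64.8 CPM in line 6 and at 66.7, 62.6 and 59.6 CPM in line 16. These ranges overlapped. The difference of line 7 from line 16 was 0.03 on the log2 scale (95% interval -0.08 to 0.14) and that from line 6 was -0.04 (-0.15 to 0.06), and no time label put line 7 apart from the others. Mdm4 stood at 82.9, 85.5 and 93.3 CPM in line 7, against 69.2, 71.8 and 79.5 CPM in line 16, and was higher in line 7 at each time label (log2 fold change 0.25, SE 0.08, edgeR adjusted p = 0.0414). When single libraries were left out, 8 of 9 fits no longer called it, and the edgeR adjusted p reached 0.225 without NLS t0 line 7.

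Among the apoptosis genes, Aen, which encodes a nuclease that takes part in p53-driven cell death, gave the firmest difference. It stood at 45.5, 61.7 and 57.1 CPM in line 7 at t0, t6 and t48, against 56.0, 70.1 and 72.0 CPM in line 16. Line 7 was lower at each time label, by 0.27 on the log2 scale (log2 fold change -0.27, SE 0.05, edgeR adjusted p = 0.000812). Pmaip1 (chromosome 18, 66458533 to 66465565, plus strand), which encodes the death protein NOXA, stood at 0.175, 1.97 and 4.84 CPM in line 7, against 0.623, 3.63 and 7.49 CPM in line 16. It was again lower at each label (log2 fold change -0.84, SE 0.23, edgeR adjusted p = 0.0142), from 4 to 141 reads a library. Bax, which encodes a pore protein of the mitochondrial death route, stood at 58.0, 72.5 and 67.3 CPM in line 7, against 70.6, 88.4 and 78.2 CPM in line 16 (log2 fold change -0.26, SE 0.07, edgeR adjusted p = 0.0204). The other tested genes of this role, Bbc3, Ei24, Pidd1 and Trp53inp1, did not pass.

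Among the genes of growth arrest and signalling, Ckap2, a gene of the mitotic spindle, stood at 45.8, 45.3 and 40.7 CPM in line 7, against 38.6, 37.3 and 31.0 CPM in line 16 (log2 fold change 0.30, SE 0.06, edgeR adjusted p = 0.00158). Line 7 was above every library of line 16. Plk2 (log2 fold change -0.18, edgeR adjusted p = 0.0133) and Phlda3 (-0.19, 0.0149) were lower in line 7, and Pml, which builds nuclear bodies, was higher (0.15, 0.0391). Ccng1 did not pass: it stood at 73.3, 63.5 and 60.8 CPM in line 7, against 66.3, 65.4 and 59.5 CPM in line 16, a difference of 0.05 with an interval of -0.06 to 0.15. Zmat3, Plk3 and Gadd45a did not pass either, nor did any of the 3 death receptor genes or the 4 genes of DNA repair and nucleotide supply.

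Of the 8 genes of metabolism and stress, Sesn3 (chromosome 9, 14275067 to 14333101, plus strand) gave the clearest line difference of all members. It stood at 103, 81.3 and 94.4 CPM in line 7 at t0, t6 and t48, against 68.4, 62.3 and 68.5 CPM in line 16, with line 6 at 67.3, 67.7 and 70.0 CPM. Every library of line 7 was above every library of the other NLS lines. The log2 fold change was 0.48 (SE 0.06, edgeR adjusted p = 2.62e-05) against line 16 and 0.44 (SE 0.06, edgeR adjusted p = 0.000159) against line 6. Ephx1 (0.15, edgeR adjusted p = 0.0293) and Sesn1 (0.22, 0.0465) were also higher in line 7 than in line 16.

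Fits that left out 1 library called 6 to 12 members in this comparison, with 7 called without NLS t0 line 16 and 6 without either NLS t6 line 16 or NLS t0 line 7. The calls of Sesn3, Aen, Ckap2 and Trp53 held in all 9 of these fits. With an offset for the effective transcript length of each library, which follows shifts in transcript use, 3 members were called, and the adjusted p of Ckap2 was 0.0709 in edgeR. In a fit without the time term, 0 were called. The share of all genes called in these alternative fits is not given here. The counts therefore do not show whether the members lost more calls than other genes.

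In line 7 against line 6, 4 of 33 members differed (12.1%), beside 11.1% of all genes (5.9% higher and 5.19% lower). Sesn3, Ckap2 and Mdm4 were higher and Aen was lower. Ckap2 stood at 45.8, 45.3 and 40.7 CPM in line 7, against 33.4, 32.6 and 32.6 CPM in line 6 (log2 fold change 0.41, SE 0.06, edgeR adjusted p = 0.000281), and no library of the pair overlapped. Aen stood at 45.5, 61.7 and 57.1 CPM in line 7, against 54.6, 67.6 and 64.5 CPM in line 6 (log2 fold change -0.19, edgeR adjusted p = 0.0194), and Mdm4 had a log2 fold change of 0.27 (edgeR adjusted p = 0.0457). Trp53 (-0.10, edgeR adjusted p = 0.1) and Bax (-0.17, 0.161) did not pass. Leaving out 1 library gave 2 to 4 calls, with 2 without NLS t0 line 6, NLS t0 line 7 or NLS t48 line 7; Sesn3 and Ckap2 were called in all 9 fits, and Bax was called without NLS t6 line 6 (edgeR adjusted p = 0.00332).

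In LacZ line 12 against LacZ line 10, no member passed, beside 0.123% of all genes (0.092% higher and 0.0307% lower). At an unadjusted p below 0.05 there were 5 of the 33 members, beside 1589 of the 13044 genes tested. DESeq2 called 1 member, Ephx1 (adjusted p = 0.0325). In the edgeR fit Ephx1 stood at 63.6 and 105 CPM in line 12 at t0 and t48, against 50.3 and 88.7 CPM in line 10 (log2 fold change 0.29, edgeR adjusted p = 0.0763). Mdm2 differed by 0.04 (95% interval -0.10 to 0.17), Ccng1 by 0.01 (-0.12 to 0.14) and Trp53 by -0.02 (-0.12 to 0.08). The interval lay within 0.5 on the log2 scale for 25 of the 33 members.

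**Figure D2:**
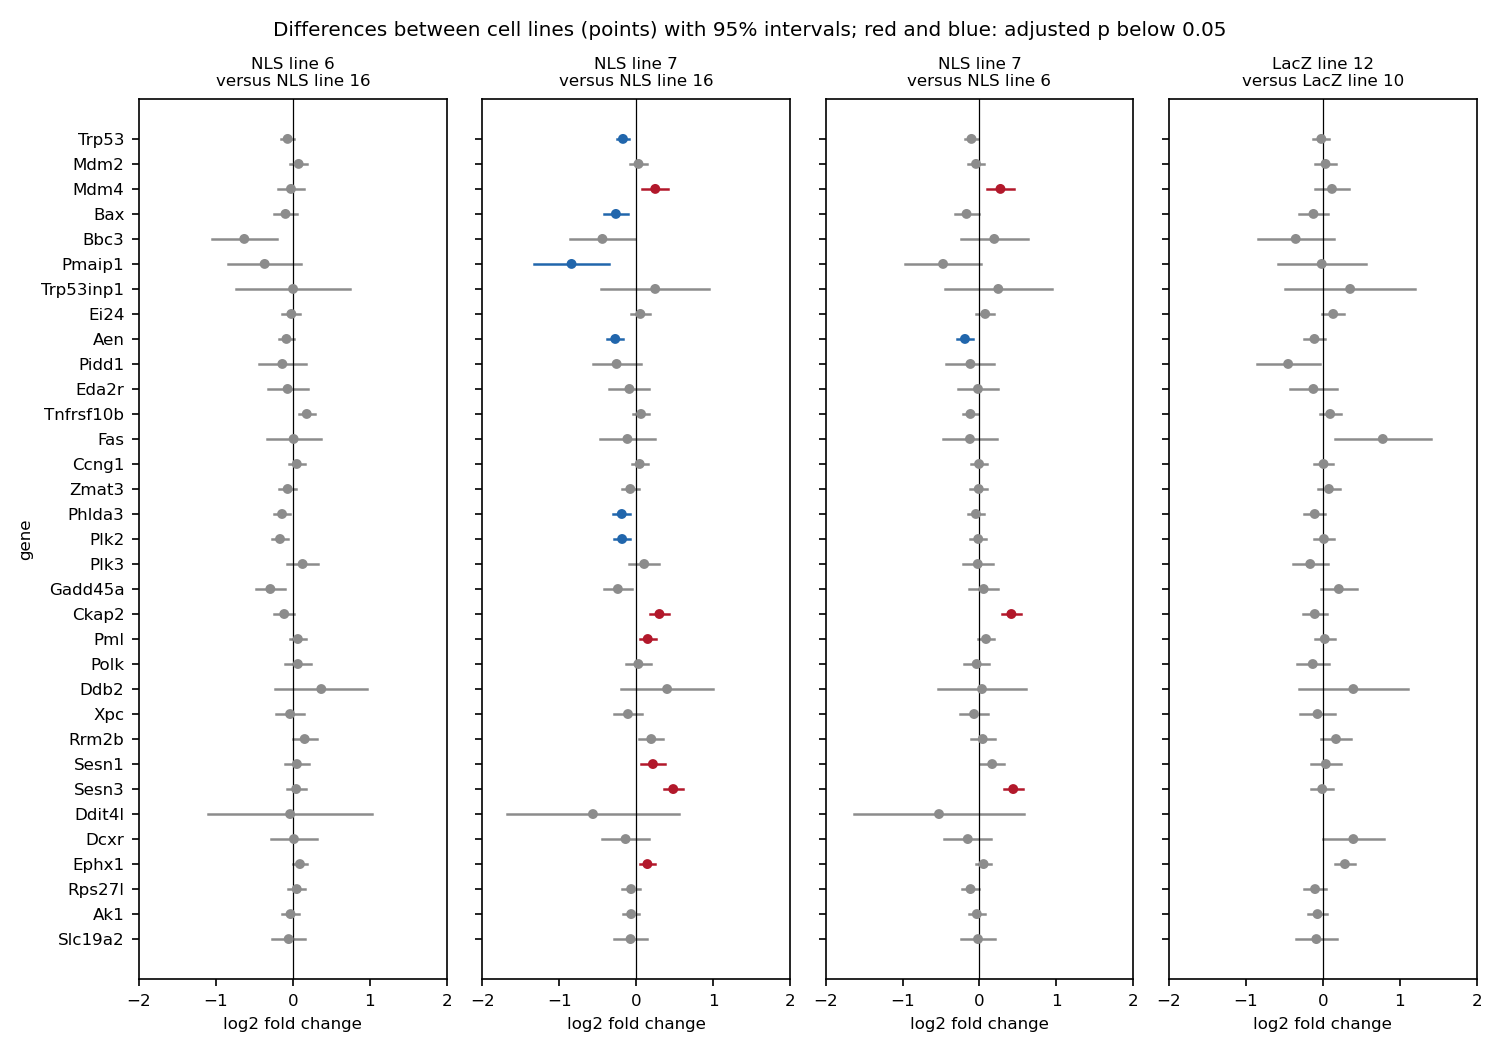
Log2 fold changes between cell lines for the 33 tested members (points), with 95% intervals (bars), for 4 comparisons; red marks members called higher and blue members called lower at an adjusted p below 0.05. Line 7 against line 16 has 12 coloured members, and line 6 against line 16 and line 12 against line 10 have none. Ddit4l is not drawn for the LacZ lines, since line 10 had no reads of it.

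Other p53 pathway genes, not among the 34, were counted in the same fits. The list held 35 upstream regulators and targets, of which 31 were tested. In line 7 against line 16, 4 were higher and 4 lower, beside 22.6% of all genes. In line 7 against line 6, 4 were higher and 2 lower, beside 11.1% of all genes. In line 6 against line 16, 1 was higher and 0 were lower, beside 2.26%, and in LacZ line 12 against line 10 none passed, beside 0.123%. Cdkn1a, which encodes p21, the cell cycle inhibitor best known as a p53 target, stood at 22.3, 25.3 and 32.3 CPM in line 7 at t0, t6 and t48, at 38.5, 39.7 and 37.9 CPM in line 6 and at 44.1, 46.8 and 42.7 CPM in line 16. All 3 libraries of line 7 were below those of the other NLS lines. The log2 fold change of Cdkn1a was -0.75 (SE 0.11, edgeR adjusted p = 0.00128) in line 7 against line 16 and -0.55 (SE 0.11, edgeR adjusted p = 0.0133) against line 6, while in line 6 against line 16 it was -0.20 (edgeR adjusted p = 0.446).

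The damage-sensing kinase genes Atm (log2 fold change 0.32, edgeR adjusted p = 0.00194), Atr (0.35, 0.00548) and Prkdc (0.35, 0.00597) were higher in line 7 than in line 16. Lower beside Cdkn1a were Sesn2, another sestrin (-0.25, edgeR adjusted p = 0.0114), and Steap3, a metal reductase gene (-0.20, 0.0204). Against line 6, line 7 was higher in Hipk2, a kinase that acts on p53 (0.31, edgeR adjusted p = 0.00941), Atr (0.34, 0.0114) and Chek1 (0.31, 0.0261), and lower in Cd82, a tetraspanin gene (-0.17, 0.0266). Cd82 was the 1 gene called in line 6 against line 16 (0.23, edgeR adjusted p = 0.0137). Adcy10 was at 181 to 200.4 CPM in line 7, lower than in line 6 and far higher than in line 16. The part of Adcy10 in the line differences was not tested.

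Line and time label were also set side by side in the 9 NLS libraries by splitting the variation of log2(CPM + 0.5). The median share that went with line was 18.5% over the members and 19.4% over all tested genes, and the share that went with time label was 64.0% and 56.7%. The time share was the larger for 23 of 33 members (69.7%), against 71.3% of all genes. Line took the most in Sesn3 (85.3%), Ckap2 (78.2%) and Bbc3 (77.7%), and time in Polk (94.8%) and Pmaip1 (94.1%). For Trp53 the shares were near each other, at 49.2% for line and 45.5% for time. These shares are descriptions of 9 libraries, with no test.

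**Figure D3:**
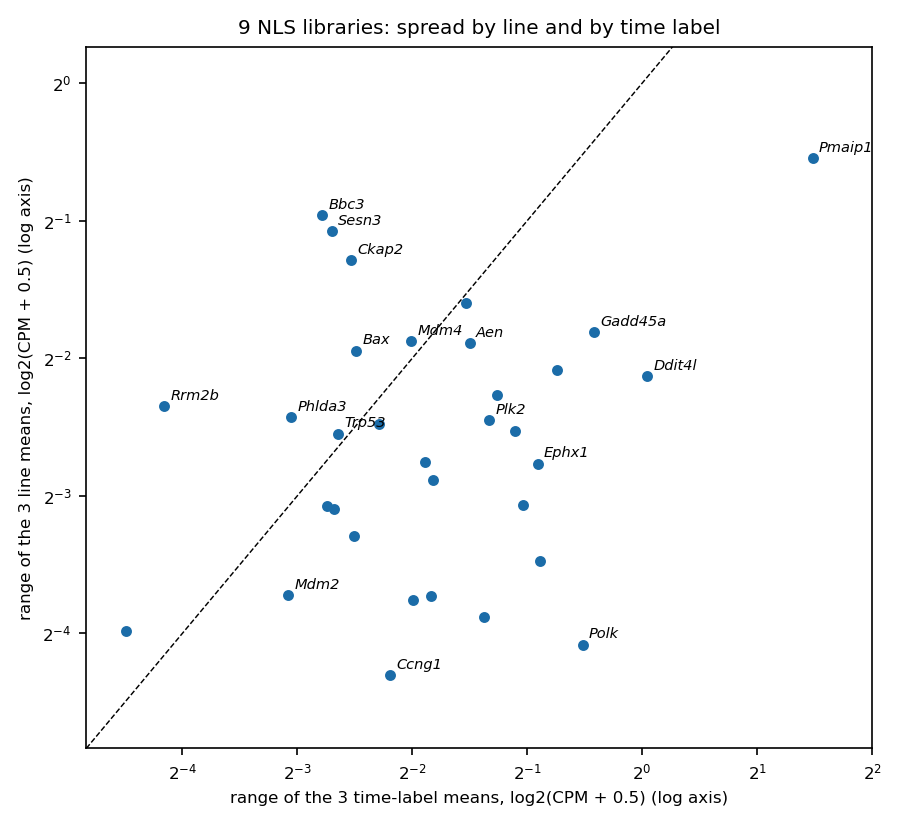
For each tested member, the range of the 3 line means (vertical, log axis) against the range of the 3 time-label means (horizontal, log axis), both on log2(CPM + 0.5), in the 9 NLS libraries; the dashed line marks equal ranges. Sesn3, Ckap2 and Bbc3 lie above the line and Pmaip1, Ddit4l, Polk and Ephx1 far to its right.

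The split of reads among transcripts is a model estimate. For the main transcripts of the 3 regulators the ranges of NLS and LacZ libraries overlapped. The transcript Trp53-203 took 51.9 to 57.7% of the reads of Trp53 in NLS libraries and 47.8 to 52.1% in LacZ libraries, ranges that overlapped only narrowly. Mdm2-201 took 86.5 to 96.6% of the reads of Mdm2 in NLS libraries and 88.0 to 97.2% in LacZ libraries. Of Mdm4, the coding transcript Mdm4-210 took 81.1 to 87.3% in NLS libraries and 82.2 to 84.6% in LacZ libraries, and a transcript annotated as a target of nonsense-mediated decay took a median of 11.7% over all libraries. Trp53, Mdm2 and Mdm4 had 6, 9 and 14 transcripts, and of all these only the minor Mdm4-211, annotated as a retained intron, did not overlap. It took 2.64 to 4.28% in NLS libraries and 0.267 to 2.28% in LacZ libraries. Mdm4 had 962 to 2100 reads in a library, so these shares rest on few reads. The share of all transcripts without overlap is not given here, so nothing is read from this difference.

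The time labels were compared next, in a fit with 5 group means, which does not pair the libraries of a line. A fit with the cell line as a block, which does pair them, is given beside it as the replicate block. In NLS t6 against NLS t0, 10 of 33 members differed (30.3%), 7 higher and 3 lower, beside 20.8% of all genes (11.6% higher and 9.23% lower). The apoptosis genes Pmaip1, Pidd1, Aen and Ei24 rose, with Polk, Plk2 and Zmat3, while Ephx1, Pml and Sesn1 fell. The regulators Trp53, Mdm2 and Mdm4 did not pass in the unpaired fit. Marker sums moved with this label without overlap. The 8 fibroblast markers summed to 7792 to 9439 CPM at t6, against 9999 to 12166 CPM at t0. The 8 melanocyte markers summed to 5.74 to 5.90 CPM at t6, against 4.12 to 5.13 CPM at t0. Leukocyte markers summed to 12.8 to 14.6 CPM at t6, against 11.5 to 12.7 CPM at t0. The melanocyte and leukocyte sums were mostly Mitf and Cd68, at up to 5.37 and 14.1 CPM over all libraries. No other gene of those lists exceeded 0.933 CPM. The part of these sums in the results was not tested, and in bulk RNA fewer cells of a type and less RNA per cell cannot be told apart.

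Pmaip1 stood at 1.97, 2.81 and 3.63 CPM at t6 in lines 7, 6 and 16, against 0.175, 0.531 and 0.623 CPM at t0. Every t6 library was above every t0 library. The log2 fold change was 2.66 (SE 0.37, edgeR adjusted p = 0.000277). Polk, which encodes the translesion DNA polymerase kappa, stood at 30.6, 31.2 and 26.4 CPM at t6, against 20.2, 21.2 and 21.8 CPM at t0 (log2 fold change 0.48, SE 0.08, edgeR adjusted p = 0.00114), and Ephx1 stood at 126, 129 and 109 CPM at t6, against 184, 173 and 169 CPM at t0 (-0.53, SE 0.09, edgeR adjusted p = 0.00116). Neither pair of groups overlapped. Smaller rises were those of Plk2 (0.37, edgeR adjusted p = 0.00506), Zmat3, an RNA-binding protein gene (0.28, 0.00514), Aen (0.35, 0.0165), Ei24, a gene of the endoplasmic reticulum and autophagy (0.25, 0.0179), and Pidd1, part of the complex that activates caspase-2 (0.64, 0.0289). Pml fell by 0.25 on the log2 scale (edgeR adjusted p = 0.0158) and Sesn1 by 0.31 (0.0344). Leaving out libraries gave 3 to 9 calls, with 3 without line 6, 5 without line 16 and 6 without NLS t6 line 16; Pmaip1, Polk and Ephx1 were called in each of the 9 fits. With the cell line as a block, 14 members were called, beside 34.7% of all genes. This replicate block fit also called Trp53 (log2 fold change 0.16, edgeR adjusted p = 0.00409), Fas (0.51, 0.0264), Sesn3 and Gadd45a.

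In NLS t48 against NLS t0, 9 of 33 members differed (27.3%), 6 higher and 3 lower, beside 26.1% of all genes (14.8% higher and 11.3% lower). Pmaip1, Aen, Plk2, Zmat3, Gadd45a and Ddit4l rose, and Sesn1, Ccng1 and the receptor gene Eda2r fell. NLS t6 and NLS t48 were set against the same t0 libraries, so the genes they share are not independent evidence. The fibroblast marker sum was 15978 to 17071 CPM at t48, against 9999 to 12166 CPM at t0. The leukocyte marker sum, mostly Cd68, was 7.78 to 8.80 CPM at t48, against 11.5 to 12.7 CPM at t0. The part of these sums in the results was not tested. Pmaip1 stood at 4.84, 5.65 and 7.49 CPM at t48 in lines 7, 6 and 16, against 0.175, 0.531 and 0.623 CPM at t0, above all t0 libraries (log2 fold change 3.75, SE 0.36, edgeR adjusted p = 6.54e-06). Ccng1 stood at 60.8, 60.1 and 59.5 CPM at t48, against 73.3, 70.7 and 66.3 CPM at t0 (log2 fold change -0.22, SE 0.05, edgeR adjusted p = 0.00761), with no overlap.

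Plk2 stood at 182, 177 and 189 CPM at t48, against 128, 131 and 159 CPM at t0 (log2 fold change 0.39, SE 0.08, edgeR adjusted p = 0.00232). Sesn1 fell by 0.43 on the log2 scale (edgeR adjusted p = 0.00482) and Eda2r, a receptor of ectodysplasin A2, by 0.38 (0.0359). Zmat3 (0.23, edgeR adjusted p = 0.0125), Gadd45a, a gene of growth arrest and DNA damage (0.47, 0.0195), and Aen (0.31, 0.026) rose. Ddit4l, which encodes an inhibitor of mTORC1 signalling, had 18, 18 and 16 reads at t48 in lines 7, 6 and 16, against 3, 6 and 5 reads at t0 (1.95, SE 0.60, edgeR adjusted p = 0.0274), and none of the 9 fits with a library or line removed called it. Trp53 (edgeR adjusted p = 0.675) and Mdm2 (0.148) did not pass. Leaving out libraries gave 2 to 8 calls, with 2 without line 6 and 5 without line 7; Pmaip1 and Plk2 were called in each of the 9. With the replicate block, 16 members were called (9 higher and 7 lower) beside 39.8% of all genes, among them Fas (0.55, edgeR adjusted p = 0.0143) and Mdm4 (0.25, 0.0257).

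In LacZ t48 against LacZ t0, 7 of 33 members differed (21.2%), 4 higher and 3 lower, beside 18.5% of all genes (8.68% higher and 9.87% lower). Fas, Ephx1, Slc19a2 and Trp53 rose, and Pmaip1, Zmat3 and Ak1 fell. The median log2 fold change was 0.14 over the members and 0.00 over all genes. Fas, the receptor of the death ligand FasL, stood at 3.22 and 2.11 CPM at t48 in lines 12 and 10, against 0.499 and 0.161 CPM at t0, which were 10 and 3 reads (log2 fold change 2.98, SE 0.37, edgeR adjusted p = 0.000181). Ephx1 stood at 105 and 88.7 CPM at t48, against 63.6 and 50.3 CPM at t0 (0.77, SE 0.11, edgeR adjusted p = 0.000618). Pmaip1 went the other way than in the NLS lines, at 1.84 and 1.22 CPM at t48, against 4.20 and 5.47 CPM at t0 (-1.65, SE 0.38, edgeR adjusted p = 0.00987). The groups did not overlap for these genes.

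Trp53 stood at 305 and 310.4 CPM at t48 in lines 12 and 10, against 248 and 251 CPM at t0 (log2 fold change 0.30, SE 0.08, edgeR adjusted p = 0.0158). Mdm2, at 64.5 and 67.3 CPM at t48 against 64.1 and 58.4 CPM at t0, did not pass (edgeR adjusted p = 0.333). Zmat3 fell by 0.33 on the log2 scale (edgeR adjusted p = 0.00926) and Ak1, an adenylate kinase gene, by 0.27 (0.0198). Slc19a2, a thiamine transporter gene, rose by 0.42 (edgeR adjusted p = 0.0328). Slc19a2 was not called without the low-count filter (edgeR adjusted p = 0.0723), with the transcript length offset (0.059) or with DESeq2 (DESeq2 adjusted p = 0.0514). Ak1 was not called with the offset (edgeR adjusted p = 0.181). Most fits that left out a library or line also lost the calls of Slc19a2 and Ak1. Every fit that left out a library or line lost the call of Trp53, with an edgeR adjusted p of up to 0.204 without line 10. The calls of Pmaip1 and Zmat3 were each lost in 4 of the 6, with edgeR adjusted p values of up to 0.27 for Pmaip1 (log2 fold change -1.19 without line 10) and 0.159 for Zmat3 (-0.28 without line 12). These 6 fits called 2 to 4 members (4 without LacZ t0 line 10 or LacZ t48 line 12, 3 without LacZ t48 line 10 or LacZ t0 line 12, 2 without either line), and each of them called Fas and Ephx1. With the replicate block, 13 members were called beside 33% of all genes, Ccng1 among them (0.17, edgeR adjusted p = 0.0457).

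The t48 responses of the NLS and LacZ lines were compared by their difference, an interaction. It passed for 11 of 33 members (33.3%), 3 higher and 8 lower in the NLS response, beside 23.3% of all genes (12.1% higher and 11.2% lower). Pmaip1 differed most, with a response of 3.75 in the NLS lines, against -1.65 in the LacZ lines (difference 5.40, SE 0.53, edgeR adjusted p = 1.53e-05). Zmat3 responded by 0.23 in the NLS lines, against -0.33 in the LacZ lines (difference 0.56, edgeR adjusted p = 0.00112), and Ak1 gave a difference of 0.31 (0.0268). Of the 3 death receptor genes, Fas rose less in the NLS lines than in the LacZ lines, while the estimates of the other genes had opposite signs. With the replicate block, Tnfrsf10b responded by -0.21 in the NLS lines (edgeR adjusted p = 0.00261), against 0.18 in the LacZ lines (0.0361). Eda2r responded by -0.38 (edgeR adjusted p = 0.0236), against 0.23 (0.243), so neither fit called its LacZ rise. Of these changes in Tnfrsf10b and Eda2r, the main fit called only the NLS fall of Eda2r. The NLS response was lower for all 3: the difference was -2.43 for Fas (edgeR adjusted p = 0.00147), -0.39 for Tnfrsf10b (0.0309) and -0.60 for Eda2r (0.0333). Ephx1 (-0.87, edgeR adjusted p = 0.000901), Ccng1 (-0.39, 0.00501), Slc19a2 (-0.64, 0.0119), Polk (-0.41, 0.0404) and Rps27l (-0.32, 0.0445) were lower as well. The sum of the 8 fibroblast markers moved with these labels, at 15978 to 17071 CPM in NLS t48 against 9999 to 12166 CPM in NLS t0, and at 7129 to 7517 CPM in LacZ t48 against 8070 to 8219 CPM in LacZ t0. The leukocyte sum also moved, at 7.78 to 8.80 CPM in NLS t48 against 11.5 to 12.7 CPM in NLS t0. In LacZ t48 it was 7.83 to 9.11 CPM, against 5.84 to 6.81 CPM in LacZ t0. The part of these sums in the results was not tested. Fits that left out a library or line called 5 to 11 members, with 5 without line 10, 6 without line 12, line 16 or LacZ t0 line 12, and 7 without line 6, LacZ t0 line 10 or NLS t48 line 7; the calls of Pmaip1, Zmat3, Ephx1 and Fas held in all 15. With the replicate block, 14 members were called, beside 37.4% of all genes. It added Trp53 (-0.26, edgeR adjusted p = 0.00324), Mdm2 (-0.22, 0.0372) and Rrm2b (0.31).

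**Figure D4:**
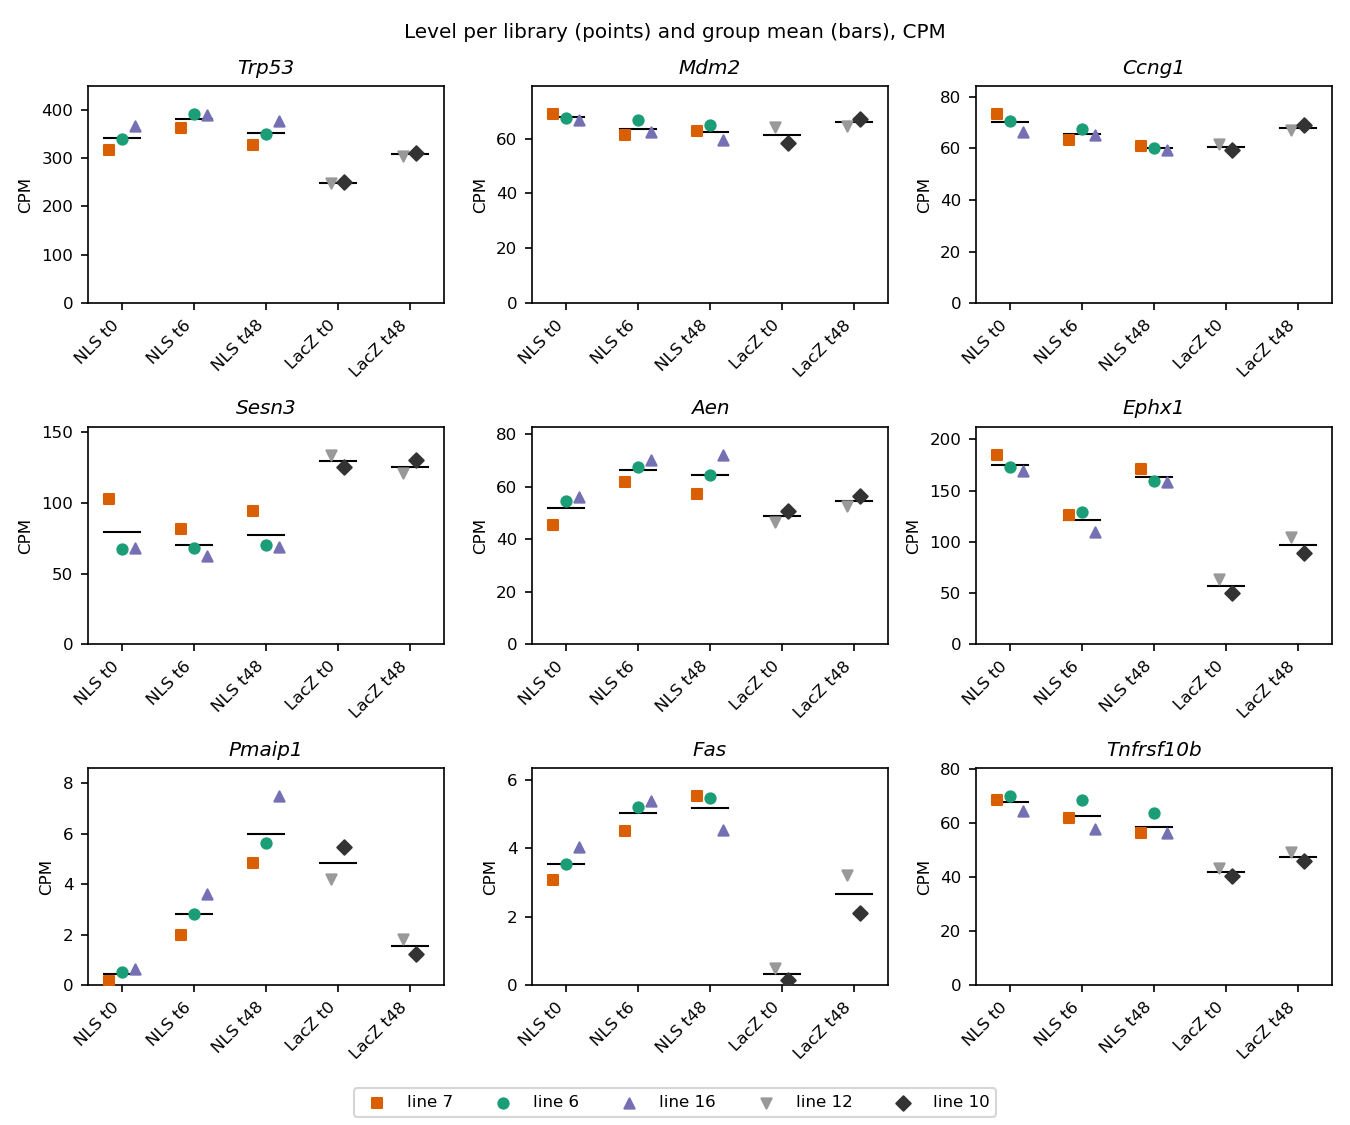
Levels in CPM of 9 members in each library (points, shaped and coloured by cell line), with group means (bars), for the 5 groups. Pmaip1 climbs with the time label in the NLS lines and is lower at t48 than at t0 in the LacZ lines, line 7 stands out in Sesn3, and Mdm2 stays between 58.4 and 68.9 CPM.

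The constructs were compared at the same time label. Each line carries 1 construct, so construct and line cannot be told apart. In NLS t0 against LacZ t0, 15 of 33 members differed (45.5%), 6 higher and 9 lower, beside 43.5% of all genes (21.1% higher and 22.4% lower). Higher in the NLS lines were Trp53, Mdm4, Ccng1, Ephx1, and the death receptor genes Fas and Tnfrsf10b. Lower were Pmaip1, Bbc3 and Ei24, the kinase gene Plk3, Rrm2b, Sesn3, Eda2r, Zmat3 and Ak1. Mdm2 did not pass (edgeR adjusted p = 0.0833).

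Trp53 stood at 317, 340.2 and 366 CPM in NLS t0 lines 7, 6 and 16, against 248 and 251 CPM in LacZ t0 lines 12 and 10 (log2 fold change 0.45, SE 0.07, edgeR adjusted p = 0.000186). Ephx1 stood at 184, 173 and 169 CPM in NLS t0, against 63.6 and 50.3 CPM in LacZ t0 (1.62, SE 0.11, edgeR adjusted p = 6.36e-08), and Fas at 3.06, 3.54 and 4.02 CPM, against 0.499 and 0.161 CPM (3.38, SE 0.35, edgeR adjusted p = 3.85e-06). Pmaip1 stood at 0.175, 0.531 and 0.623 CPM in NLS t0, against 4.20 and 5.47 CPM in LacZ t0 (-3.44, SE 0.38, edgeR adjusted p = 9.21e-06). None of these groups overlapped.

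Tnfrsf10b (0.69, edgeR adjusted p = 2.06e-05) and Ccng1 (0.21, 0.0112) were higher in NLS t0 as well, and Mdm4 had 0.36 (0.0488). Plk3 (-0.55, edgeR adjusted p = 0.00103), Rrm2b, the p53-inducible subunit of ribonucleotide reductase (-0.50, 0.00272), Sesn3 (-0.70, 0.0147) and Ei24 (-0.25, 0.017) were lower. Bbc3 was lower at -0.92 (edgeR adjusted p = 0.017), but was not called with the offset for effective transcript length (edgeR adjusted p = 0.995). Fits that left out 1 library called 9 to 15 members, with 9 without LacZ t0 line 10; Mdm4 lost its call in 4 of 5 of them, Bbc3 and Sesn3 in 3.

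In NLS t48 against LacZ t48, 15 of 33 members again differed (45.5%), 8 higher and 7 lower, beside 45.1% of all genes (23% higher and 22.2% lower). Trp53 stood at 327, 350.2 and 376 CPM in NLS t48 lines 7, 6 and 16, against 305 and 310.4 CPM in LacZ t48 lines 12 and 10 (log2 fold change 0.19, SE 0.07, edgeR adjusted p = 0.0425). Pmaip1 was now higher in the NLS lines, at 4.84, 5.65 and 7.49 CPM, against 1.84 and 1.22 CPM in the LacZ lines (1.95, SE 0.36, edgeR adjusted p = 0.000563). Ephx1 (0.75, edgeR adjusted p = 5.76e-05), Zmat3 (0.37, 0.000675), Fas (0.95, 0.00659), Tnfrsf10b (0.30, 0.00914) and Mdm4 (0.46, 0.0151) were higher too. Ddit4l was called higher (edgeR adjusted p = 0.00594) with 18, 18 and 16 reads in NLS t48, against 3 and 0 reads in LacZ t48, too few for a fold change.

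Lower in NLS t48 were Eda2r, at 4.13, 5.37 and 5.04 CPM, against 9.57 and 9.95 CPM in LacZ t48 (log2 fold change -1.01, SE 0.13, edgeR adjusted p = 3.21e-05), Ei24 (-0.42, 0.000514), Plk3 (-0.57, 0.000744), Slc19a2 (-0.46, 0.00447), Rps27l (-0.26, 0.0124), Sesn3 (-0.69, 0.015) and Ccng1 (-0.18, 0.0261). Ccng1, higher at t0 and lower at t48, changed sides between the time labels, as did Pmaip1 and Zmat3. Mdm2 did not pass (edgeR adjusted p = 0.343), and neither did Bax (0.156). Without LacZ t48 line 10, 7 members were called. With single libraries removed, 4 of 5 fits no longer called Trp53, and the same number lost Ccng1.

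Over all 9 NLS and 4 LacZ libraries, whatever the time label, 3 of 34 members were higher in every NLS library than in every LacZ library and 3 were lower, beside 11.3% and 12.1% of all tested genes. Trp53 ranged from 317 to 391 CPM (median 362) in NLS libraries, against 248 to 310.4 CPM (median 278) in LacZ libraries. Ephx1 ranged from 109 to 184 CPM (median 160), against 50.3 to 105 CPM (median 76.1), and Tnfrsf10b from 56.0 to 69.7 CPM (median 63.5), against 40.5 to 49.1 CPM (median 44.4). Sesn3 ranged from 62.3 to 103 CPM (median 68.5) in NLS libraries, against 121 to 134 CPM (median 128) in LacZ libraries. Eda2r and Plk3 were also lower in every NLS library. Mdm2 ranged from 59.6 to 68.9 CPM (median 64.8) in NLS libraries, against 58.4 to 67.3 CPM (median 64.3) in LacZ libraries, which overlap almost wholly.

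**Figure D5:**
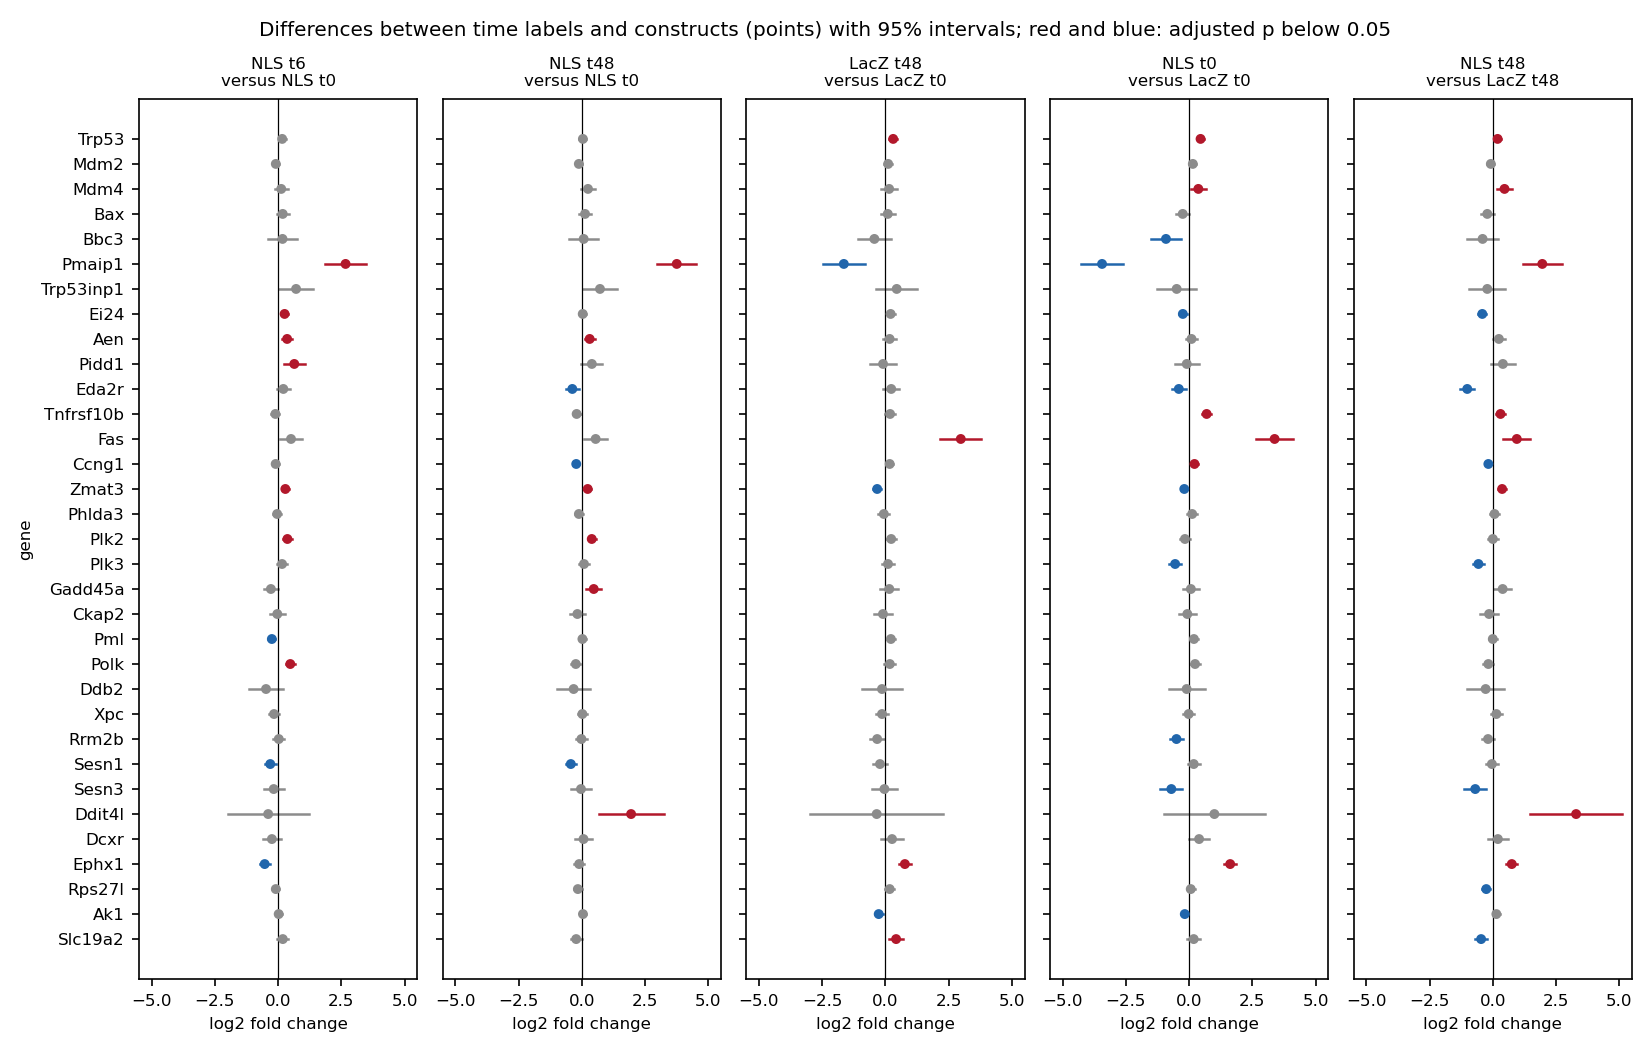
Log2 fold changes of the 33 tested members (points) with 95% intervals (bars) for 3 time-label and 2 construct comparisons; red marks members called higher and blue members called lower at an adjusted p below 0.05. Pmaip1 lies at 2.66 and 3.75 in the NLS time panels, at -1.65 in the LacZ time panel, and at -3.44 and 1.95 in the construct panels, while Mdm2 lies near 0 in all 5.

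Members that passed in none of the 10 comparisons in the main fits were Mdm2, the repair genes Ddb2 and Xpc, which act in nucleotide excision repair, Dcxr, a sugar reductase gene, and Trp53inp1. With the replicate block, Mdm2 passed in the interaction (-0.22, edgeR adjusted p = 0.0372). Over the 13 libraries Ddb2 ranged from 1.38 to 3.36 CPM (median 2.13), Xpc from 12.7 to 16.4 CPM (median 14.3), Dcxr from 3.32 to 5.13 CPM (median 4.17) and Trp53inp1 from 0.487 to 1.48 CPM (median 0.978). At these levels Xpc was measured with the most reads and Trp53inp1 with the fewest.

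The 7 members with a p53 element in front of a start site were read across the same comparisons. In line 6 against line 16 and LacZ line 12 against line 10, 0 of them passed, beside 2.26% and 0.123% of all genes. In line 7 against line 16, Ckap2, Pml and Sesn1 were higher and Bax lower, beside 22.6% of all genes, and in line 7 against line 6, Ckap2 was higher, beside 11.1%. In NLS t6 against NLS t0, Polk was higher and Pml and Sesn1 lower, beside 20.8% of all genes. In NLS t48 against NLS t0, Ccng1 and Sesn1 were lower, beside 26.1%, and in LacZ t48 against LacZ t0, 0 passed, beside 18.5%. The interaction had Ccng1, Polk and Rps27l lower, beside 23.3% of all genes. Between constructs, Ccng1 was higher in NLS t0 than in LacZ t0, beside 43.5%. Ccng1 and Rps27l were lower in NLS t48 than in LacZ t48, beside 45.1%. With 7 genes, 1 call more or less moves such a share widely, so nothing is read from these counts. The median log2 fold change of the 7 lay between -0.18 and 0.18 in each comparison of lines, time labels and constructs, and was -0.22 in the interaction.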

How the data were processed

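The labels' protocols describe Trizol extraction, poly(A) selection and a stranded Truseq preparation sequenced from both ends. Per the submitters' processing notes, Salmon 1.2.0 and GRCm38 were used by the authors; neither its options nor its transcript set are stated in those notes. The deposited tables give, for each transcript, estimated counts (reads shared out by Salmon's model), TPM and an effective length. Identifiers of 115977 of 116546 transcripts (99.5%) were found in a GENCODE annotation of GRCm38, and the estimated counts were summed per gene and rounded; unmatched transcripts held 0.121 to 0.165% of reads. CPM use TMM library sizes.

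Tests were edgeR 4.0.16 quasi-likelihood fits (R 4.3.3, limma 3.58.1) on all 13 libraries, TMM, the edgeR low-count filter and robust spread, with Benjamini-Hochberg adjustment over 13044 genes. Standard errors and 95% intervals follow from the test statistic. Time labels and constructs used 5 group means; lines used these plus cell line within construct. The fits were also run on simulated counts with known changes. Apart from those changes the simulated libraries were independent, so correlated libraries of a line were not covered. Alternatives were DESeq2 1.42.0, its size factors, no filter, a transcript length offset, a block for cell line, each construct alone, no time term, and leaving out libraries or lines. The members, gene lists and tests were chosen with earlier results of these data known. Members given in full are Trp53, Mdm2, Mdm4, Ccng1 and Bax, and in each comparison the called members of smallest p, up to 6 in each direction; of the other p53 genes, Cdkn1a and up to 3 in each direction.

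The line number marks the same cell line, so it pairs libraries. Deviations from group means correlated at r = 0.104 to 0.451 across genes between NLS libraries of a line (9 pairs). Between NLS lines r was -0.44 to 0.0914 (18 pairs), values that centring on the group mean pushes down. In LacZ r was 0.0705 within a line and -0.0705 between lines. With 2 libraries in a LacZ group, these values must mirror each other, so that contrast tests nothing. No 2 libraries of a group agreed within sampling noise (lowest chi-square per degree of freedom 6.94).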

Additional observations from a re-analysis of the deposited data

Results flagged for a closer look

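The t48 response differed between the NLS and the LacZ lines by an interaction test for 11 members, given here as the NLS response minus the LacZ response on the log2 scale. It was 5.40 for Pmaip1, 0.56 for Zmat3 and 0.31 for Ak1. It was -0.87 for Ephx1, -2.43 for Fas, -0.39 for Ccng1, -0.64 for Slc19a2, -0.39 for Tnfrsf10b, -0.60 for Eda2r, -0.41 for Polk and -0.32 for Rps27l. These calls were not equally firm. Most fits with a library or line removed lost the calls of Ak1, Tnfrsf10b and Eda2r. Ak1 was also not called with the transcript length offset (edgeR adjusted p = 0.209), nor Eda2r with DESeq2 (DESeq2 adjusted p = 0.0543).

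Pmaip1 and Zmat3 were called lower in LacZ t48 and higher in NLS t48, but 4 of 6 fits with a library or line removed lost each LacZ call. The LacZ t48 libraries, which enter every one of these differences, carry a compartment label that goes against their titles. Groups of 3 or fewer libraries were too small to test for single outlying libraries.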

How the results depend on the processing

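No result changed direction under any alternative. Of 1493 results for single genes under an alternative, 1241 kept their side of the threshold, 241 lost a call and 11 gained one. Of the 922 that left out a library or line, 187 lost a call and 5 gained one.

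Counts of called members moved by more than 1.5 times as follows. Except with the replicate block, the share of all genes called under an alternative is not given here. A lower count may thus be shared by all genes. In line 7 against line 16, against 12 members, 3 were called with the transcript length offset, 7 with DESeq2 and 0 without the time term, which leaves the spread between times in the error; the last gave 0 against 4 for line 7 against line 6. For LacZ line 12 against line 10, against 0, there was 1 (Ephx1) with no filter, with DESeq2 and with the LacZ libraries alone. With the replicate block, NLS t48 against t0 gave 16 (beside 39.8% of all genes) and LacZ t48 against t0 gave 13 (33%). Without the filter the interaction gave 7. The block moved the other counts by less: NLS t6 gave 14, beside 34.7% of all genes, and the interaction 14, beside 37.4%.

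Leaving out libraries or lines gave 0 to 2 calls for line 6 against line 16, 6 to 12 for line 7 against line 16, 2 to 4 for line 7 against line 6, 0 to 0 for LacZ line 12 against line 10, 3 to 9 for NLS t6, 2 to 8 for NLS t48, 2 to 4 for LacZ t48, 5 to 11 for the interaction, 9 to 15 for the constructs at t0 and 7 to 16 at t48. Where this left 1 library in a group, that library was assumed to vary like the others.

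Pmaip1, Fas, Ddit4l, Trp53inp1, Ddb2 and Bbc3 rest on few reads in some groups, which limits what these depths can show.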
